A study of Arabidopsis thaliana with 9 samples.

Results

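The 8 genes described here encode full-size ABCB transporters of Arabidopsis thaliana: ABCB4 (AT2G47000), ABCB11 (AT1G02520), ABCB12 (AT1G02530), ABCB21 (AT3G62150), ABCB3 (AT4G01820), ABCB5 (AT4G01830), ABCB1 (AT2G36910) and ABCB19 (AT3G28860). They were taken by locus identifier from the 33557 loci of both deposited tables, and all 8 were found in both. They were picked as relatives of ABCB4 and ABCB11 with the doxycycline values of these genes already known. Their differences between doxycycline and wild type are thus given below as a description, without exact p-values. Calls in that contrast are stated only at the threshold used for every gene, and nothing is drawn from them. Polyadenylated RNA was sequenced from 14-day-old Col-0 seedlings in 9 libraries, 3 biological replicates for each of 3 groups. The groups were wild type given 25 µg/ml doxycycline in liquid half-strength MS medium for 12 h, mrpl1-1 mutants given the medium without the drug, and wild type given the medium without the drug. Doxycycline blocks translation in mitochondria and also in plastids. The mutant is named for a protein of the mitochondrial ribosome and is represented by 1 allele. Levels are given as FPKM (fragment counts divided by gene length and by the size of the library). One table holds doxycycline and wild type and another mrpl1-1 and wild type, each on its own scale. The same wild-type libraries stand in both tables, multiplied by 0.941 in the second, so each comparison was made within its own table and both comparisons share their controls.

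ABCB proteins are P-glycoprotein-like membrane transporters, with a pair of transmembrane domains and a pair of ATP-binding domains in one chain, that use ATP to move small molecules across the plasma membrane. In plants several of them carry the hormone auxin. ABCB1 and ABCB19 export auxin in stems and roots together with the immunophilin-like protein TWD1. ABCB4 acts in the root epidermis and root hairs and ABCB21 in seedling tissues, and both can move auxin in either direction. ABCB4 has also been listed among the nuclear genes that respond when mitochondria are disturbed.

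In the RefSeq annotation of TAIR10.1 the proteins have 1229 to 1296 residues and fall into 2 sets by sequence. ABCB4, ABCB21, ABCB11, ABCB12, ABCB3 and ABCB5 share between 71.4% and 93.3% of aligned residues with each other, against 43.6% to 46.9% with ABCB1 or ABCB19. ABCB1 and ABCB19 share 54.5%. ABCB4 (chromosome 2, 19309643 to 19315343, minus strand, 12 exons) is closest to ABCB21 (chromosome 3, 23008653 to 23014030, minus strand, 12 exons) at 84.5% identity. ABCB11 (chromosome 1, 523536 to 529069, plus strand, 11 exons) and ABCB12 (529679 to 534677, plus strand, 10 exons) are tandem neighbours 609 bases apart, with 93.3% identity. ABCB3 (chromosome 4, 780646 to 785340) and ABCB5 (785551 to 790447), both on the minus strand, lie 210 bases apart and share 87.1%. ABCB1 lies on chromosome 2 (15501726 to 15507501, plus strand) and ABCB19 on chromosome 3 (10870005 to 10877578, minus strand), each with 10 exons.

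**Figure D1:**
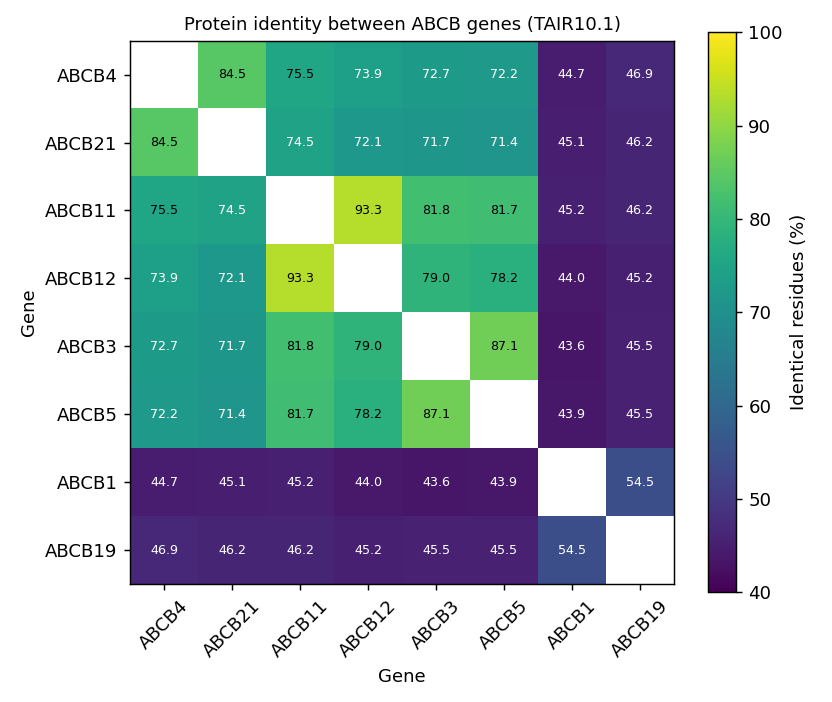
Percent of identical residues over aligned positions for each pair of the 8 ABCB proteins, as coloured cells with the value in each cell. The 6 genes from ABCB4 to ABCB5 form a block of 71.4% to 93.3%, while their cells with ABCB1 and ABCB19 lie between 43.6% and 46.9%.

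The stretches upstream of 4 genes are shown because they set the pair with the largest doxycycline differences, ABCB11 and ABCB4, beside the closest relative of each. Each line holds the 250 bases before the annotated gene start, read 5′ to 3′ on the gene's strand from TAIR10.1: chr1:523286-523535 for ABCB11, chr1:529429-529678 for ABCB12, chr2:19315344-19315593 for ABCB4 and chr3:23014031-23014280 for ABCB21. Capitals mark a match to the mitochondrial dysfunction motif, the element bound by membrane-released NAC factors of mitochondrial retrograde signalling.
ABCB11: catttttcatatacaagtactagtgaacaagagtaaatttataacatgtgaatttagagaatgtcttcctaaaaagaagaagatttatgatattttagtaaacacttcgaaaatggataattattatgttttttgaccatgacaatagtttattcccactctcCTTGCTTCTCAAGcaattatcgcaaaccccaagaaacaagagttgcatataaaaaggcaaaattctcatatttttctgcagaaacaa
ABCB12: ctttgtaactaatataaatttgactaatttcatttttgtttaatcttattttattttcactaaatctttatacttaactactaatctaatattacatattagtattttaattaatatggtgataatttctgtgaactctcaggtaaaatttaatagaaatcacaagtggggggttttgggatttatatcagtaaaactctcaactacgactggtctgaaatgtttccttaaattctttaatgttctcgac
ABCB4: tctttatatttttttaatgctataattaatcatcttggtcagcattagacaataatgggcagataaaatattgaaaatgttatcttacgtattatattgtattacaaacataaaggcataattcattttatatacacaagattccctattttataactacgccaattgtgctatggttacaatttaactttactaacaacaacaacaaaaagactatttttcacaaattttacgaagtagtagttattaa
ABCB21: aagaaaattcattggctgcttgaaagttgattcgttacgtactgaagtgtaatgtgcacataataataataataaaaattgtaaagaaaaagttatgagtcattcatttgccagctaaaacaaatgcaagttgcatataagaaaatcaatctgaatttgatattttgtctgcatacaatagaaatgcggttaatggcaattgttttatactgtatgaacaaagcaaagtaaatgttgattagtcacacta
The motif was searched as CTTG, then 5 bases of any kind, then CAAG or CACG, on both strands, from 250 bases before to 50 after the start. ABCB11 held one match, CTTGCTTCTCAAG, whose first base lies at -87 relative to the start, and the other 7 genes held none. Of 27443 promoters of nuclear protein-coding genes 391 held a match, which is 1.42%. Over 1000 bases before the start, 4.39% of promoters held one. ABCB4 had none in that longer window either, while ABCB12 had one at -794 and ABCB3 one at -931. Both of these lie inside the neighbouring gene, ABCB11 and ABCB5. Matches are letters only and no binding was measured. Windows were set from the outermost annotated start of each gene. ABCB4 has 7 annotated mRNAs, and any inner starts were not searched separately. Other short elements were scanned in the window of 250 before to 50 after the start. The auxin response element TGTCTC occurred in ABCB3 and ABCB19 (14.2% of promoters). The W-box core TTGAC occurred in ABCB11, ABCB12, ABCB5, ABCB1 and ABCB19 (50.5%), the core TGACG of TGA-factor sites, which shares its TGAC with the W-box, in ABCB3 (23.1%), and the G-box CACGTG in none of the 8.

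Depth, recovered from the steps between low FPKM values, was about 5.54 to 7.23 M reads in the doxycycline libraries, 3.39 to 8.30 M in the mrpl1-1 libraries and, from the doxycycline table, 3.17 to 8.41 M in wild type. From the mrpl1-1 table the same wild-type libraries came out at 3.32 to 8.80 M, so depths are approximate. Wild-type replicate 3, the shallowest, stood slightly apart, with a median correlation with the other libraries of the doxycycline table of 0.932, against 0.954 to 0.963 for the rest. MRPL1 (AT2G42710, a locus taken from background knowledge), the gene the mutant is named for, measured 19.6, 12.0 and 18.6 FPKM in the mrpl1-1 libraries and 19.4, 17.9 and 25.1 FPKM in wild type (limma, adjusted p = 0.931), so its transcript gave no check of the mutant label. Both root and shoot markers were present in all 9 seedling libraries.

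With doxycycline, ABCB11 and ABCB4 were several times higher than in wild type, ABCB21 and ABCB1 were slightly higher and ABCB19 was at nearly the same level. ABCB11 measured 19.1, 16.1 and 15.4 FPKM in doxycycline replicates 1 to 3, against 2.64, 2.59 and 1.88 FPKM in wild type. The lowest doxycycline library was thus far above the highest wild-type library. The ratio of mean FPKM was 7.12, and the log2 fold change on the log2(FPKM + 1) scale was 2.41 (SE 0.16), with 0.121% of the 19073 tested genes showing a larger one. ABCB4 measured 38.7, 31.5 and 37.8 FPKM with doxycycline, against 10.9, 11.2 and 13.5 FPKM in wild type, again with no overlap between the groups. Its ratio of means was 3.03 and its log2 fold change 1.52 (SE 0.13), and 0.419% of tested genes had a larger one. These values rest on about 929 to 1242 reads per library for ABCB4 with doxycycline and 190 to 407 in wild type, and on 357 to 578 reads for ABCB11 with doxycycline and 25 to 93 in wild type.

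**Figure D2:**
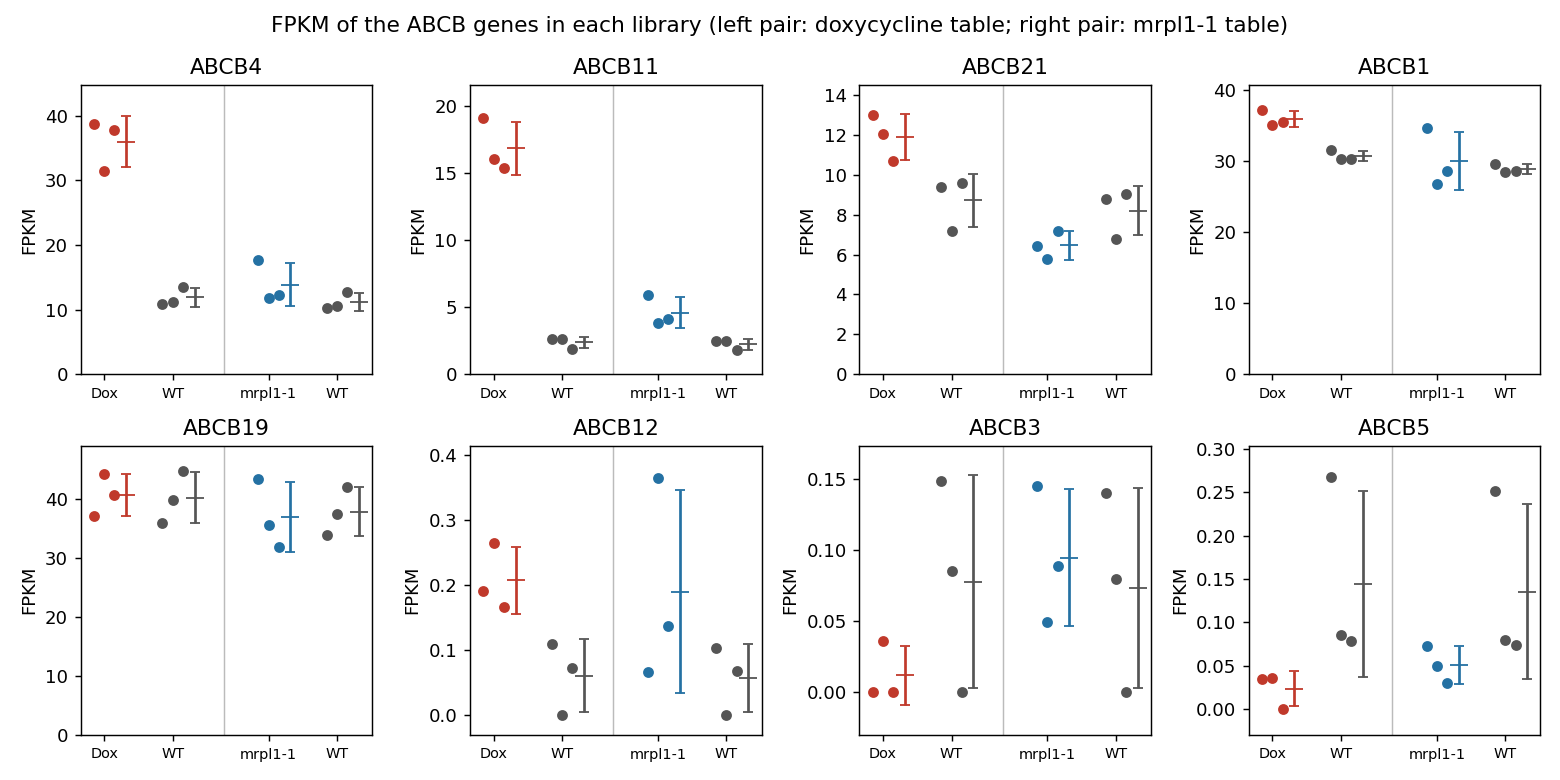
FPKM of each ABCB gene (1 panel a gene, with its own linear axis) in each library: points are replicates 1 to 3 and bars the mean and SD, for doxycycline (red) and wild type (grey) from one table and mrpl1-1 (blue) and wild type (grey) from the other. ABCB11 lay at 15.4 to 19.1 FPKM with doxycycline, 3.78 to 5.88 FPKM in mrpl1-1 and 1.88 to 2.64 FPKM in wild type of the doxycycline table.

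ABCB21, the closest relative of ABCB4, was at 13.003, 12.0 and 10.7 FPKM with doxycycline and at 9.37, 7.20 and 9.58 FPKM in wild type. The groups did not overlap, but the ratio of means was only 1.37 (log2 fold change 0.42, SE 0.15). ABCB1 was at 37.2, 35.0 and 35.5 FPKM with doxycycline and at 31.6, 30.3 and 30.3 FPKM in wild type, a ratio of 1.17 with replicates close together in both groups (log2 fold change 0.22, SE 0.09). ABCB19 was at 37.1, 44.2 and 40.6 FPKM with doxycycline and at 36.0, 39.9 and 44.7 FPKM in wild type, so its groups overlapped throughout (log2 fold change 0.02, SE 0.12).

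The tandem neighbour ABCB12 was near the limit of detection in every library. It was listed at 0.191, 0.264 and 0.166 FPKM with doxycycline, against 0.110, 0 and 0.0726 FPKM in wild type. The steps in the table resolve these values into 6, 8 and 4 reads with doxycycline and 4, 0 and 1 reads in wild type. The doxycycline libraries thus lay above wild type, but on 18 reads against 5. ABCB12 shares 215 of its 4215 stretches of 50 bases with the ABCB11 mRNAs (5.10%), and its reads amounted to 1.28% of the ABCB11 reads with doxycycline and to 2.75% in wild type. Whether ABCB11 reads were counted for ABCB12 was not tested. ABCB3 had 0, 1 and 0 reads with doxycycline (0, 0.0360 and 0 FPKM) and 5, 2 and 0 reads in wild type (0.149, 0.0852 and 0 FPKM). ABCB5 had 1, 1 and 0 reads with doxycycline (0.0346, 0.0359 and 0 FPKM) and 9, 2 and 1 reads in wild type (0.268, 0.0851 and 0.0789 FPKM). Most wild-type reads of both came from replicate 1, the deepest library, and no fold is given for either. ABCB3 and ABCB5 share 204 stretches of 50 bases, which is 5.39% of the ABCB3 stretches and 5.36% of the ABCB5 stretches, so reads between them are also uncertain.

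Of the 8 genes, 5 reached a mean of 1 FPKM and entered the fit over all genes; ABCB12, ABCB3 and ABCB5 did not. In the fit over all genes, ABCB4 and ABCB11 of these 5 were past the threshold used for every gene (limma, adjusted p under 0.05, higher with doxycycline), where 0.115% of all tested genes were called higher and 0.0682% lower, 0.184% in all. Groups did not overlap, with doxycycline higher, for 4 of the 5 tested and for ABCB12, where 8.51% of tested genes had such a pattern. ABCB5 was the one gene with doxycycline lower and no overlap, a pattern of 7.48% of tested genes. This contrast chose the genes, so nothing is read from these counts. The median log2 fold change was 0.42 over the 5 genes and 0.00 over all 19073.

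Transcripts as long as these differed a little as a class, and the ABCB values are set against that. Among 983 tested genes with mRNAs of 3500 to 5000 nt the median log2 fold change with doxycycline was 0.06, and the central 95% of them lay between -0.25 and 0.37. ABCB1 and ABCB19 fell within that range and ABCB21, at 0.42, just above it. ABCB4 and ABCB11, chosen with these values known, lay above it. Of the 983 genes, 131 (13.3%) lay higher with doxycycline without overlap and 18 lower. Centred on genes within 20% of their own length, the log2 fold changes were 2.35 for ABCB11, 1.47 for ABCB4, 0.36 for ABCB21, 0.16 for ABCB1 and -0.04 for ABCB19.

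**Figure D3:**
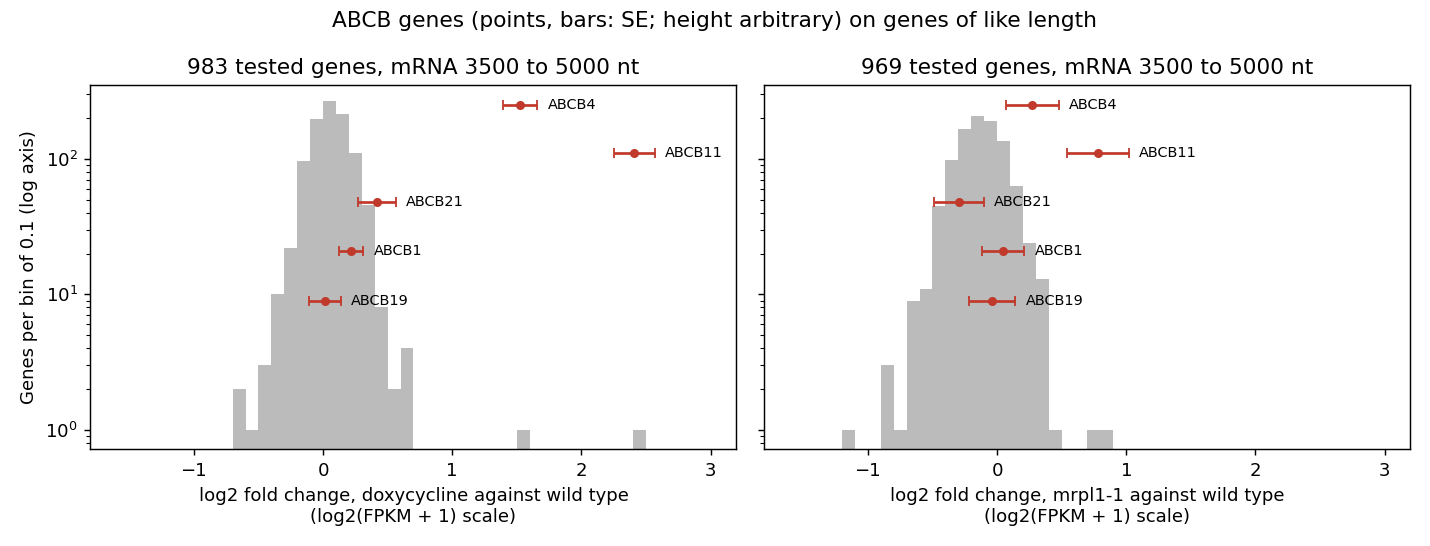
Histogram (log count axis) of log2 fold changes of tested genes with mRNAs of 3500 to 5000 nt, for doxycycline (left, 983 genes) and mrpl1-1 (right, 969 genes) against wild type, with the 5 tested ABCB genes as red points and bars of 1 SE. ABCB4 and ABCB11 stand at 1.52 and 2.41 on the left, and at 0.27 and 0.78 on the right.

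In the order of levels, which FPKM allows because it is scaled by length, doxycycline and wild type differed. With doxycycline ABCB19 averaged 40.6 ± 3.55, ABCB4 36.0 ± 3.97 and ABCB1 35.9 ± 1.12 FPKM (SD, n = 3), and the replicates of these 3 overlapped. ABCB11 followed at 16.9 ± 1.98 and ABCB21 at 11.9 ± 1.16 FPKM (SD, n = 3), which did not overlap. In wild type of the same table ABCB19 averaged 40.2 ± 4.36, ABCB1 30.7 ± 0.720, ABCB4 11.9 ± 1.42, ABCB21 8.72 ± 1.32 and ABCB11 2.37 ± 0.425 FPKM (SD, n = 3), and neighbours in that order did not overlap. ABCB11 thus stood above ABCB21 with doxycycline and below it in wild type.

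The summed level of the 8 genes was 141.6 ± 3.305 FPKM with doxycycline and 94.1 ± 5.20 FPKM in wild type (SD, n = 3). ABCB4 made up 25.4% ± 2.43 of that sum with doxycycline and 12.6% ± 0.791 in wild type (SD, n = 3). ABCB11 made up 11.9% ± 1.12 with doxycycline and 2.54% ± 0.574 in wild type (SD, n = 3). Such shares do not depend on how a library was scaled. The FPKM ratio of ABCB4 to ABCB11 within a library was 2.03, 1.96 and 2.46 with doxycycline and 4.15, 4.32 and 7.19 in wild type, so ABCB11 differed by more than ABCB4. In whole-seedling RNA a change in the number of cells that express a gene and a change in RNA per cell cannot be told apart.

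**Figure D4:**
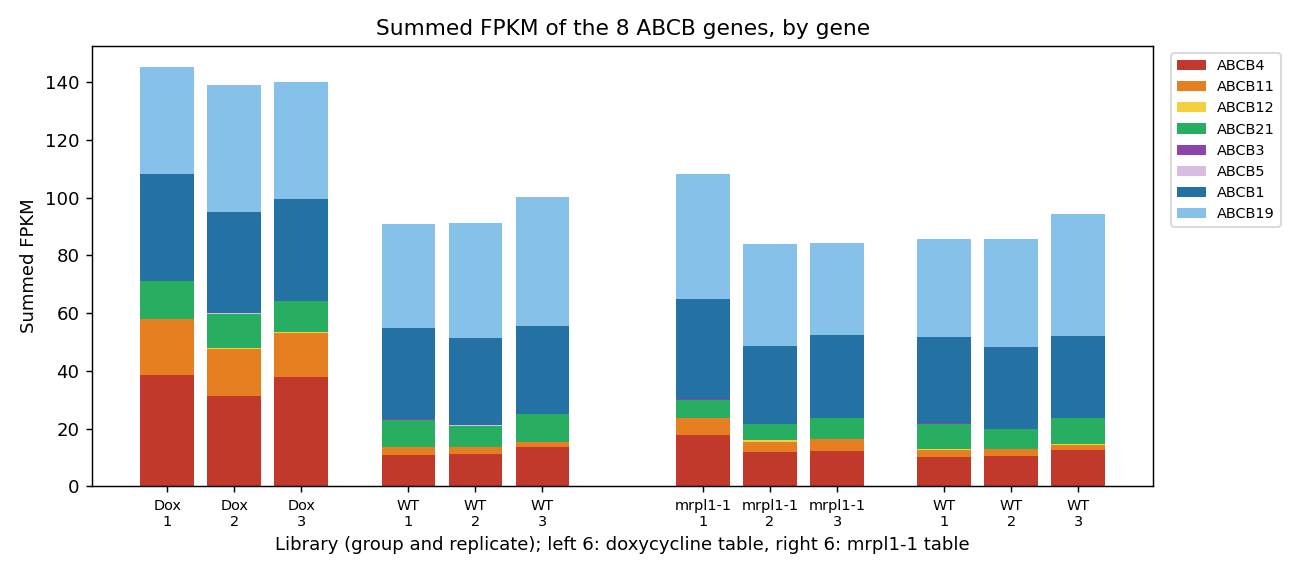
Summed FPKM of the 8 ABCB genes per library, stacked by gene, for doxycycline and wild type (left 6 bars) and mrpl1-1 and wild type (right 6 bars). The doxycycline bars reach 139 to 145 FPKM, against 91.0 to 100.2 FPKM in wild type of that table, and ABCB4 and ABCB11 fill most of the added height.

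In the libraries labelled mrpl1-1, ABCB11 and ABCB4, chosen with their doxycycline values known, lay closer to wild type than with doxycycline. ABCB19 lay near wild type in both comparisons, with log2 fold changes of -0.04 in mrpl1-1 and 0.02 with doxycycline. The difference between the responses was not tested. The wild-type libraries are those of the contrast that chose the genes. Tests and counts in mrpl1-1 are thus not independent of that choice. ABCB11 measured 5.88, 3.78 and 4.10 FPKM in mrpl1-1, against 2.48, 2.44 and 1.77 FPKM in wild type of that table. The groups did not overlap and the ratio of means was 2.06, but the log2 fold change of 0.78 (SE 0.24, 95% interval 0.23 to 1.33) failed the correction across the 18994 genes tested (adjusted p = 0.931 with limma; higher in 3 of 3 libraries). ABCB4 measured 17.6, 11.8 and 12.2 FPKM in mrpl1-1 and 10.3, 10.5 and 12.7 FPKM in wild type. Replicate 1 of mrpl1-1 stood above wild type and the other 2 lay within its range (log2 fold change 0.27, SE 0.20, 95% interval -0.19 to 0.74; limma, adjusted p = 0.931). Its log2 fold change was 0.10 without mrpl1-1 replicate 1 and 0.46 without both wild-type replicate 3 and mrpl1-1 replicate 2. The FPKM ratio of ABCB4 to ABCB11 within a library was 2.998, 3.12 and 2.98 in mrpl1-1, against 4.15 to 7.19 in wild type. The summed level of the 8 genes was 92.2 ± 13.9 FPKM in mrpl1-1 and 88.6 ± 4.94 FPKM in wild type (SD, n = 3), and the share of ABCB11 in it was 4.93% ± 0.474 in mrpl1-1 and 2.54% ± 0.574 in wild type (SD, n = 3).

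ABCB21 measured 6.44, 5.76 and 7.19 FPKM in mrpl1-1 and 8.81, 6.77 and 9.02 FPKM in wild type, with an overlap in 1 pair of libraries (log2 fold change -0.30, SE 0.19, 95% interval -0.74 to 0.14; limma, adjusted p = 0.931). Its value was -0.17 against genes of like length and -0.16 without both libraries that stand apart (wild-type replicate 3 and mrpl1-1 replicate 2). It thus lay on the lower side in mrpl1-1 and on the higher side with doxycycline; the difference between these responses was not tested. ABCB1 was at 34.7, 26.8 and 28.7 FPKM in mrpl1-1 and 29.7, 28.5 and 28.6 FPKM in wild type (limma, adjusted p = 0.980). ABCB19 was at 43.3, 35.5 and 31.8 FPKM in mrpl1-1 and 33.8, 37.5 and 42.1 FPKM in wild type (limma, adjusted p = 0.982). For both the groups overlapped, with mrpl1-1 libraries reaching above and below the wild-type range. The 95% intervals of the log2 fold change, -0.33 to 0.42 for ABCB1 and -0.45 to 0.37 for ABCB19, left room for modest differences either way. In mrpl1-1 the replicates of ABCB11 and ABCB21 overlapped in level.

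The low genes stayed low in mrpl1-1. ABCB12 had 1, 8 and 5 reads in mrpl1-1 and 4, 0 and 1 in wild type, ABCB3 had 2, 1 and 3 reads in mrpl1-1 and 5, 2 and 0 in wild type, and ABCB5 had 1 read in each mrpl1-1 library and 9, 2 and 1 in wild type. Counts this low do not resolve a difference for any of them. None of the 5 tested genes was called in mrpl1-1 (limma; ABCB11 had an unadjusted p under 0.05, at 0.0109), where 0.0263% of all tested genes were called higher and 0.0105% lower, 0.0369% in all; 4.46% had an unadjusted p under 0.05. Groups did not overlap, with mrpl1-1 higher, for ABCB11 alone of the 5, against 5.09% of tested genes, and with mrpl1-1 lower for none of them, against 5.04%. Among the 3 low genes ABCB5 lay lower in mrpl1-1 without overlap, at 0.0727, 0.0496 and 0.0297 FPKM against 0.252, 0.0800 and 0.0743 FPKM in wild type. The median log2 fold change was 0.05 over the 5 genes and -0.00 over all 18994. Genes with mRNAs of 3500 to 5000 nt had a median of -0.13 in this comparison (969 genes), and against genes within 20% of their length ABCB11 lay at 0.91, ABCB4 at 0.41, ABCB1 at 0.19, ABCB19 at 0.09 and ABCB21 at -0.17.

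Among the other full-size ABCB genes that were tested, no log2 fold change with doxycycline was as large as those of ABCB4 and ABCB11. ABCB4 and ABCB11 were chosen with their doxycycline values known, so nothing is read from this ordering. Of 14 other full-size ABCB genes, 7 were tested with doxycycline and 6 in mrpl1-1, and none was called in either comparison (limma; none had an unadjusted p under 0.05, as 8.49% of all tested genes did with doxycycline). Their median log2 fold change was 0.08 with doxycycline (range -0.16 to 0.32) and -0.13 in mrpl1-1 (range -0.34 to 0.20). ABCB2, the most abundant of them, was at 18.0 ± 1.38 FPKM with doxycycline and 20.3 ± 1.20 FPKM in wild type (SD, n = 3; limma, adjusted p = 0.731). In mrpl1-1 it was at 14.99 ± 2.85 FPKM and in wild type at 19.1 ± 1.14 FPKM (SD, n = 3; limma, adjusted p = 0.931). ABCB15 was at 13.4 ± 1.95 FPKM with doxycycline and 10.5 ± 0.675 FPKM in wild type, and ABCB6 at 10.9 ± 0.690 FPKM with doxycycline and 8.58 ± 1.35 FPKM in wild type (SD, n = 3; limma, adjusted p = 0.606 for both). ABCB18 and ABCB22 were listed at 0 in all libraries.

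The half-size ABCB genes, whose proteins sit in mitochondria, plastids or the vacuole, were also not called. Of 7, 6 were tested, with a median of 0.11 with doxycycline and -0.06 in mrpl1-1 (limma; none had an unadjusted p under 0.05). ABCB25 (ATM3), the mitochondrial exporter for cytosolic iron-sulfur cluster assembly, was at 17.6 ± 1.87 FPKM with doxycycline and 15.3 ± 3.99 FPKM in wild type (SD, n = 3; limma, adjusted p = 0.777). ABCB27 (ALS1), a vacuolar half-transporter tied to aluminium tolerance, was at 15.1 ± 1.37 FPKM with doxycycline and 15.1 ± 0.589 FPKM in wild type (SD, n = 3; limma, adjusted p = 0.999). ABCB29 had the smallest p with doxycycline (limma, adjusted p = 0.692; log2 fold change 0.27, SE 0.17). ABCB26 was at 13.3 ± 0.219 FPKM with doxycycline and 12.1 ± 2.41 FPKM in wild type (SD, n = 3; limma, adjusted p = 0.825), and had the smallest p in mrpl1-1 (log2 fold change -0.26, SE 0.25; adjusted p = 0.931).

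Auxin transport outside the ABCB family is carried by PIN exporters, AUX1 and LAX importers and PILS carriers of the endoplasmic reticulum, and the list held these together with ABCG36, ABCG37, WAT1 and NRT1.1. Of its 20 genes 19 were tested and none was called in either comparison (limma; 4 were higher and none lower with doxycycline at an unadjusted p under 0.05, and none either way in mrpl1-1). Over all tested genes 8.49% had such a p with doxycycline and 4.46% in mrpl1-1, both directions together. Medians were 0.09 with doxycycline and 0.15 in mrpl1-1. PILS3 had the smallest p with doxycycline, at 42.3 ± 3.0002 FPKM against 27.3 ± 3.65 FPKM in wild type (SD, n = 3; log2 fold change 0.62; limma, adjusted p = 0.194). PILS2 was at 20.8 ± 0.800 FPKM with doxycycline and 15.9 ± 1.16 FPKM in wild type (SD, n = 3; limma, adjusted p = 0.437). In mrpl1-1 PILS2 had the smallest p (log2 fold change 0.35, SE 0.19; adjusted p = 0.931). Among 7 regulators of ABCB and PIN proteins none was called. TWD1, the partner of ABCB1 and ABCB19, was at 9.02 ± 1.44 FPKM with doxycycline and 8.59 ± 2.23 FPKM in wild type (SD, n = 3; limma, adjusted p = 0.928). WAG1, a kinase that acts on PIN proteins, had the smallest p with doxycycline (0.81, SE 0.36; limma, adjusted p = 0.597), and the blue-light receptor kinase PHOT1 in mrpl1-1 (-0.28, SE 0.18; adjusted p = 0.931). Of 15 tested auxin response genes none was called (limma; none at an unadjusted p under 0.05 with doxycycline, and 3 higher in mrpl1-1, against the same 8.49% and 4.46% of all tested genes). The auxin-conjugating enzyme genes GH3.5 (0.29, SE 0.13; adjusted p = 0.606) with doxycycline and GH3.6 (0.63, SE 0.20; adjusted p = 0.931) in mrpl1-1 had the smallest p.

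Genes of mitochondrial stress were set beside ABCB4 and ABCB11. Of 14 tested genes of that list, chosen with results on these samples known, 3 were called as higher with doxycycline (limma; 0.115% of all tested genes), with a median of 1.32, and 1 in mrpl1-1 (0.0263% of all tested genes), with a median of 0.52. Since the list was chosen that way, these counts and medians are no independent evidence of its direction. The called genes with doxycycline were AT2G04050, a MATE efflux carrier gene (log2 fold change 3.26, SE 0.29, adjusted p = 0.0128), NDB2, an external mitochondrial NAD(P)H dehydrogenase gene (1.06, SE 0.11, adjusted p = 0.0190), and AT12CYS-2, which encodes a small protein with twin cysteine motifs (2.94, SE 0.30, adjusted p = 0.0206). In mrpl1-1 it was AT12CYS-2 (2.92, SE 0.32, adjusted p = 0.0289).

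Profiles were compared by the mean absolute difference between centred log2(FPKM + 1) values over the 6 libraries of the doxycycline table, where 0 is an identical pattern. The median tested gene differed from ABCB4 by 0.77. The 5 genes most like ABCB4 were AT4G37030 (0.12), ABCA7 (0.12), a transporter gene of another ABC subfamily, UGT84A1 (0.17), a glucosyltransferase gene for hydroxycinnamates, DTX1 (0.17), a MATE efflux carrier gene, and SOT12 (0.18), a sulfotransferase gene. ABCA7 measured 15.04, 12.2 and 10.5 FPKM with doxycycline and 3.43, 3.23 and 4.23 FPKM in wild type. Over the 6 libraries of the mrpl1-1 table the same 5 genes differed from ABCB4 by 0.13, 0.13, 0.32, 0.20 and 0.17. No median over tested genes was taken there, and the wild-type libraries are those already used to pick the 5. These values are thus no independent check of likeness, nor are those for ABCB11 below. ABCB11 differed from a median tested gene by 1.20, and was most like AT2G03130 (0.18), listed at 0 in all wild-type libraries, AT2G32020 (0.26), the glycosyltransferase gene UGT73B4 (0.26), AT2G03230 (0.27) and the glutathione transferase gene GSTU24 (0.27). Over the mrpl1-1 table these 5 differed from ABCB11 by 0.60, 0.35, 0.28, 0.45 and 0.53, and GSTU24 had a log2 fold change of -0.28 there, against 0.78 for ABCB11. ABCB4 and ABCB11 differed from each other by 0.44, which placed ABCB4 24th among the genes most like ABCB11 and ABCB11 148th among those most like ABCB4.

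ABCB4 is known as a root gene, and 5 of 10 tested root markers lay lower with doxycycline without overlap (7.48% of all tested genes). Of the 13 root markers listed, RHS13, a root hair gene, was called lower (log2 fold change -1.67, SE 0.12; limma, adjusted p = 0.00582). The root hair genes EXPA18, LRX1, COBL9 and EXPA7 lay between -1.22 and -0.72 without being called. The other 5 tested markers overlapped wild type: GL2 lay at -0.24, CASP1 at -0.28, SHR at -0.10, PIN2 at -0.03 and SCR at 0.20. The summed level of the root markers was 91.5 to 107 FPKM with doxycycline and 167 to 182 FPKM in wild type, a difference carried mostly by RHS13 (18.7 ± 2.05 FPKM with doxycycline and 61.5 ± 4.48 FPKM in wild type; SD, n = 3). The summed level of 10 shoot markers was 24530 to 26076 FPKM with doxycycline and 26038 to 26447 FPKM in wild type. In mrpl1-1 root markers summed to 170 to 274 FPKM and in wild type to 157 to 171 FPKM, with 11 tested and none called (limma; EXPA7 had the smallest p, log2 fold change 0.40, SE 0.16, adjusted p = 0.931). Shoot markers summed to 22612 to 44422 FPKM in mrpl1-1 and 24514 to 24875 FPKM in wild type, with none called. The part of these tissue markers in the ABCB values was not tested. WER, an epidermal regulator gene, was the 1 marker listed at 0, in doxycycline replicate 3.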

How the data were processed

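Transcript levels were measured by RNA sequencing of polyA RNA in 9 libraries. The deposited values are FPKM in 2 tables of 6 sample columns each, all 12 columns matched to samples by name. Cufflinks 2.2.1, FastQC 0.10.1 and the build TAIR10 are listed in the submitters' processing notes without saying what each was used for. Sources used here do not give an aligner, strand use or the treatment of reads that map to several genes. The authors made the FPKM values, and a 0 can be a failed estimate.

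Within each table, genes averaging 1 FPKM or more over its 6 libraries were fitted on log2(FPKM + 1) with limma 3.58.1 in R 4.3.3 (variance trend, Benjamini-Hochberg adjustment at 0.05, 3 libraries a group, no covariate), and checked on simulated data. Fold changes on that scale understate those of low genes. Whether replicates came from separate cultures is not stated beyond the word biological, and p-values measure the spread between these samples.

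Depth came from low values: for 80.9% to 84.8% of genes under 0.5 FPKM, the value in one library over that in wild-type replicate 1 was a quotient of integers no larger than 6 (relative tolerance 0.003), against 0.416% to 0.588% at wrong steps. For ABCB12, ABCB3 and ABCB5 the value of 1 read was fitted in each table to bring all libraries nearest to whole numbers. Their reads then lay within 0.000488 of a whole number, a closeness that the fit itself favoured. Other read numbers are estimates from length. No count test was run.

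The genes and lists were chosen with earlier results of these data known. From each list the text names the called genes, or else the gene with the smallest p in each comparison, and of the other ABCB lists also the 3 most abundant in wild type; TWD1, PILS2 with doxycycline, ABCA7's values, and the root markers besides RHS13 and, in mrpl1-1, EXPA7 were named after their values were seen. Of 33557 loci, 32810 matched RefSeq's TAIR10.1 annotation and 747 did not; coordinates and sequences are of TAIR10.1, not of the authors' files. Proteins were translated from the longest coding sequence and aligned in pairs with mafft 7.526. ABCB4 overlaps the antisense locus AT2G09775 over 152 bases and ABCB21 overlaps AT3G62140 over 97 bases, so reads there are uncertain. Alternatives were other pseudocounts, filters, scalings, no trend, the replicate block, no organelle genes and each library left out; length centring and a fit without both outlying libraries were added after seeing the data.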

Additional observations from a re-analysis of the deposited data

How the results depend on the processing

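With doxycycline, a contrast that chose the genes and from which nothing is read, the number of the 8 called was 2 as reported, 1 with the replicate number as a block, and between 1 and 2 with single libraries left out (1 without doxycycline replicate 1, doxycycline replicate 3 or wild-type replicate 2). The gene no longer called was ABCB4 each time, though its log2 fold change under the block was still 1.52. ABCB11 was called in every fitted alternative. Same-numbered libraries of doxycycline and wild type deviated together with r of -0.03, 0.08 and 0.06, against -0.10 to 0.02 for different numbers. Those of mrpl1-1 and wild type did so with r of -0.08, 0.03 and -0.07, against -0.04 to 0.12 for different numbers. Deviations were centred within groups of 3, so these r do not settle whether replicate numbers pair the samples. Under the block 7 genes were called with doxycycline and 6 in mrpl1-1. The pseudocount set the size of the ABCB11 value, from 1.57 at a pseudocount of 5 to 2.79 at 0.1, and that of ABCB4, at 1.28 with 5; ABCB1 lay at 0.16 after length centring. In mrpl1-1 none of the genes was called in any of 16 fitted alternatives, though ABCB11 was not fitted under the filter of 5 FPKM. The lowest adjusted p with limma, 0.534, was for ABCB11. Its log2 fold change in mrpl1-1 ran from 0.40 at a pseudocount of 5 to 1.00 at 0.1. ABCB1 (0.05 as reported) lay there between -0.0597 and 0.122 with single libraries left out, turning without mrpl1-1 replicate 1. ABCB19 (-0.04 as reported) lay between -0.160 and 0.0577, turning without mrpl1-1 replicate 3 and, to 0.0373, without wild-type replicate 3; it was 0.0580 without both libraries that stand apart (wild-type replicate 3 and mrpl1-1 replicate 2) and 0.0875 after length centring. The cause was not tested. Over all genes, 35 were called with doxycycline, against 20 with no filter, 21 without trend and between 9 and 91 with a library left out, with 91 without wild-type replicate 3. In mrpl1-1, 7 were called, against 4 with a pseudocount of 5, 4 with no filter, 2 with a filter of 5 FPKM and between 5 and 11 with a library left out. The motif matches were the same over 250 bases before the start only, and identity over the shorter protein kept ABCB11 and ABCB12 at 92.7% and ABCB4 and ABCB21 at 83.9%. ABCB12, ABCB3 and ABCB5 are limited by depth.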
